A study of Mus musculus with 12 samples.

Results

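The immediate-early activity genes described here are 10 genes, Fos, Fosb, Junb, Egr1, Egr2, Egr4, Nr4a1, Npas4, Arc and Ier2, whose mRNA was read from the cortex of 12 aged E4FAD mice given DPAn-6 or vehicle. They were chosen as a list of symbols, with no measured value in the rule, and were found in the count table by the Ensembl gene identifier that the GENCODE M21 annotation of GRCm38 gives each symbol. All 10 were found, among the 50563 genes of the table, and all 10 passed the filter on low counts, which kept 15688 genes.

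RNA-Seq was run on 1 cortex library per mouse, with 7 mice in the CTRL group and 5 in the DPAn-6 group. Every mouse was of the E4FAD strain with the genotype APOE4+/+, 5FAD-/+, in which human APOE4 replaces mouse Apoe and the 5xFAD transgenes for human amyloid precursor protein and presenilin are carried. There was therefore no group without the 5xFAD transgenes. DPAn-6, the omega-6 docosapentaenoic acid, was given as its ethyl ester by daily oral gavage for 3 weeks, and CTRL mice received the gavage vehicle. The antioxidants alpha-tocopherol and palmitoyl ascorbic acid went to both groups. The CTRL group held 2 mice of 12 months and 5 of 14 months, and the DPAn-6 group held 2 of 12 months and 3 of 14 months, with both sexes in each group. Libraries held 15339098 to 19500154 counts in CTRL (median 17449553) and 15208803 to 26520251 in DPAn-6 (median 18400132). The values below are CPM (counts per 1000000 counts of the library), and differences are on the log2 scale.

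Immediate-early genes are transcribed within minutes of a burst of synaptic activity, from transcription factors that already sit in the cell, and their mRNAs are short-lived. Calcium entry and the ERK and CaM kinases act on CREB, on the serum response factor with its partners and on MEF2 factors, which bind these promoters. Most of the genes encode transcription factors that switch on slower, late-response genes, while Arc acts at the synapse itself.

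The stretch just upstream of the start site is shown for the genes whose promoter could be read, because CREB and serum response factor sites are a well known link from synaptic activity to these genes. Promoter sequences come from RefSeq on GRCm38.p6, and 7 of the 10 genes had an entry. Up to 130 bases before the RefSeq start are printed for 6 of them, 5′ to 3′ on the gene's strand, without bases that lie in an annotated exon. Capitals mark the core of the cAMP response element bound by CREB, TGACG or on the other strand CGTCA, and in Egr2 also the CArG box bound by serum response factor.
Fos, chr12:85473760-85473889, plus strand: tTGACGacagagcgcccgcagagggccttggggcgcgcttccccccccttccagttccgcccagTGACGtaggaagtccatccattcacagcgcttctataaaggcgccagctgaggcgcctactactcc
Fosb, chr7:19310052-19310175, minus strand: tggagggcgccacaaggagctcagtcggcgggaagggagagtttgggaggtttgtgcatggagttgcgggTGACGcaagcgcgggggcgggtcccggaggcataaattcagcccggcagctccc
Junb, chr8:84978749-84978878, minus strand: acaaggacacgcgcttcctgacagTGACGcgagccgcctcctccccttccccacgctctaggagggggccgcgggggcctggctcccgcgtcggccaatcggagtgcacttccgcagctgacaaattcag
Egr2, chr10:67537739-67537868, plus strand: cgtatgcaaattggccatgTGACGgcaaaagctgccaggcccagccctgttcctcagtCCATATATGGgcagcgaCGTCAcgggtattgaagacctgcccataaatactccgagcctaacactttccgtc
Egr4, chr6:85513590-85513719, minus strand: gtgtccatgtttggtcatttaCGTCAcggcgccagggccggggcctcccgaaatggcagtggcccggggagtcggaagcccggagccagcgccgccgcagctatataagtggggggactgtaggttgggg
Nr4a1, chr15:101266716-101266845, plus strand: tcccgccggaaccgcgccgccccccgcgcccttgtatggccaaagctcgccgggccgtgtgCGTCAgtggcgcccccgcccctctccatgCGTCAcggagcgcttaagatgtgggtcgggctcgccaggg

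Searched over 250 bases before the start and on both strands, TGACG was found in all 7 genes with an entry (the 6 above and Npas4), while 17.8% of the 32851 RefSeq promoter windows of the mouse hold it. A gene was counted here and below if any of its windows held the letters, and the 7 genes had 11 windows. The shares are of single windows, so the 2 are not like measures. The full 8-letter element TGACGTCA, which contains TGACG, was found in 0 of 7 and in 1.55% of all windows. A CArG box was found in Egr2 alone among the 7, against 1.47% of all windows. Sites further than 250 bases before the start were not searched, so a gene without a match here may have one there. The EGR site GCGGGGGCG was found in Fosb and Nr4a1 (2.57% of all windows) and TATAA in Fos, Egr2, Egr4 and Npas4 (22.8%). A match is a run of letters in these windows and was not tested for binding.

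Of the 10 genes, 0 passed the threshold of an adjusted p below 0.05 between DPAn-6 and CTRL mice (edgeR's quasi-likelihood test, Benjamini-Hochberg over 15688 genes), where 0.408% of all genes tested passed as higher and 1.14% as lower. The estimated level in DPAn-6 mice was above CTRL for 9 genes and below it for Ier2, while 48.7% of all genes tested had an estimate above CTRL. The median log2 fold change of the 10 genes was 0.27, against -0.005 over all genes tested. An unadjusted p below 0.05 was found for Fosb, Egr1 and Egr4 with edgeR, all higher, a result that 5.51% of all genes tested gave in that direction, and with DESeq2 for the same 3 genes. limma-voom gave 5 genes with an unadjusted p below 0.05, and neither tool gave an adjusted p below 0.05 for any of the 10. Permuting the mice over all 792 splits, in an exact two-sided test on mean log2 CPM whose smallest possible p is 0.00126, gave an unadjusted p below 0.05 for the same 3 genes as well (8.69% of all genes tested in this direction). In Egr4 alone all 5 DPAn-6 mice were above all 7 CTRL mice, which held for 1.73% of all genes tested. In bulk cortex, fewer cells of a type and less RNA per cell cannot be told apart.

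**Figure D1:**
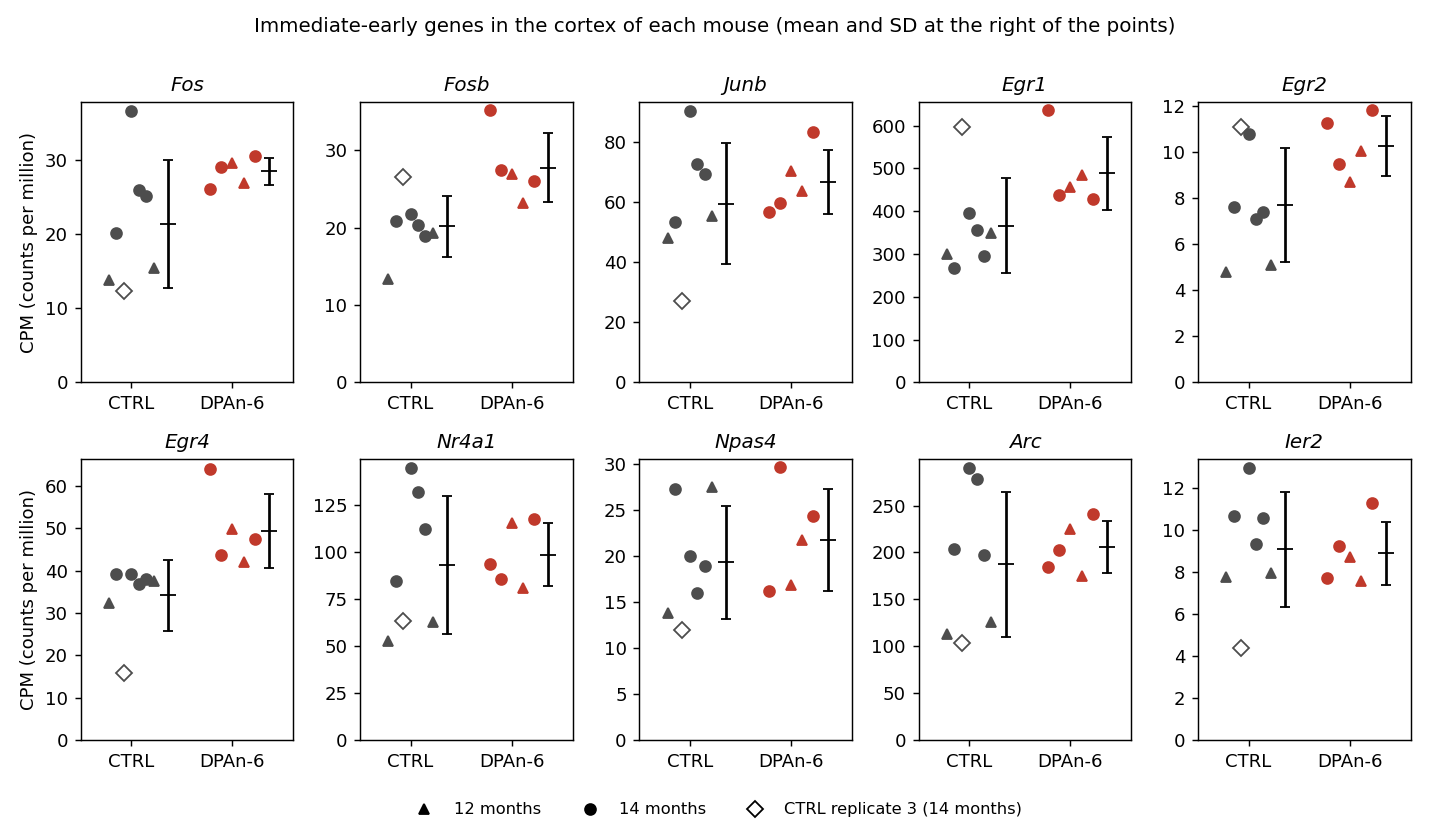
CPM of the 10 genes in each mouse, with CTRL in grey and DPAn-6 in red. Triangles are 12-month and circles 14-month mice, the open diamond is CTRL replicate 3, and bars give the mean and SD. The groups separate in Egr4, and the CTRL values of Fos, Junb, Nr4a1 and Arc spread more widely than the DPAn-6 values.

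Fos, Fosb and Junb encode subunits of AP-1, a dimer of a FOS and a JUN family protein. Fos (ENSMUSG00000021250, chr12:85473890-85477273 on GRCm38, like the positions below) is the gene most often used to mark recently active neurons. Its CTRL values ran from 12.3 to 36.7 CPM with a median of 20.2, and the DPAn-6 mice 1 to 5 read 26.1, 29.0, 29.6, 26.9 and 30.6 CPM. The DPAn-6 mice lay close together inside the CTRL range, above 6 of the 7 CTRL mice, and CTRL replicate 4 stood above all of them. The log2 fold change was 0.39 ± 0.21 (SE; edgeR p = 0.0856, adjusted p = 0.431; exact permutation p = 0.0833), so the difference did not pass the test.

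Fosb (ENSMUSG00000003545, chr7:19302696-19310051) gives, besides the full protein, the truncated delta-FosB form that builds up with repeated activity, and gene counts do not separate the forms. CTRL mice read 13.3 to 26.6 CPM with a median of 20.3, and the DPAn-6 mice read 35.2, 27.5, 27.0, 23.1 and 26.0 CPM. Only CTRL replicate 3, at 26.6, reached into the DPAn-6 range, and the next CTRL mouse read 21.8. The log2 fold change was 0.44 ± 0.14 (SE), or 1.35-fold, with an edgeR p of 0.00765 (adjusted p = 0.151) and an exact permutation p of 0.00884.

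Junb (ENSMUSG00000052837, chr8:84974484-84978718) encodes a JUN partner that often restrains the activity of c-Jun. It ran from 27.1 to 90.3 CPM in CTRL mice with a median of 55.4, and the DPAn-6 mice read 56.7, 59.6, 70.2, 63.7 and 83.4 CPM. Both the lowest and the highest of the 12 mice were CTRL mice. DPAn-6 against CTRL gave a log2 fold change of 0.15 ± 0.21 (SE; edgeR adjusted p = 0.814; exact permutation p = 0.438). Junb shares 173 exon bases with Prdx2, a peroxiredoxin gene on the opposite strand, and since it is not known whether counting used strand, reads in those bases cannot be assigned to either. Prdx2 read 91.5 to 113 CPM in 11 mice and 44.3 CPM in CTRL replicate 3, the mouse with the least Junb.

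Egr1, Egr2 and Egr4 encode zinc finger transcription factors that bind a shared GC-rich site. Egr1 (ENSMUSG00000038418, chromosome 18), also called Zif268 and linked to synaptic plasticity, read 267 to 596 CPM in CTRL with a median of 349.5, and 637, 438, 456, 485 and 429 CPM in DPAn-6. All 5 DPAn-6 mice were above 6 of the 7 CTRL mice, and CTRL replicate 3, at 596, was second among all 12. The log2 fold change was 0.39 ± 0.18 (SE), or 1.31-fold, with an edgeR p of 0.0426 (adjusted p = 0.321) and an exact permutation p of 0.0467.

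Egr2 (ENSMUSG00000037868, chr10:67535475-67542188), also called Krox20 and known for a role in myelinating Schwann cells, was the least abundant per length. CTRL mice read 4.80 to 11.1 CPM with a median of 7.39, and DPAn-6 mice 11.2, 9.47, 8.70, 10.1 and 11.8 CPM. CTRL replicates 3 and 4 fell among the DPAn-6 mice and the other CTRL mice below them. Its log2 fold change was 0.39 ± 0.20 (SE; edgeR p = 0.0616, adjusted p = 0.374; exact permutation p = 0.0619).

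Egr4 (ENSMUSG00000071341, chr6:85511121-85513589), also called NGFI-C, showed the largest fold change of the 10 genes. CTRL mice read 15.9 to 39.3 CPM with a median of 37.6, and DPAn-6 mice 64.0, 43.7, 49.9, 42.1 and 47.6 CPM. No CTRL mouse reached the lowest DPAn-6 mouse, and 6 of the 7 CTRL mice lay between 32.5 and 39.3 CPM. The log2 fold change was 0.51 ± 0.17 (SE), or 1.42-fold, with an edgeR p of 0.00988 (adjusted p = 0.168) and an exact permutation p of 0.00253.

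Nr4a1 (ENSMUSG00000023034, chr15:101254269-101274795) encodes Nur77, an orphan nuclear receptor. It read 52.6 to 145 CPM in CTRL with a median of 84.7, and 93.7, 85.9, 116, 81.1 and 118 CPM in DPAn-6. The DPAn-6 mice sat in the middle of the CTRL range, with CTRL mice on both sides. Its log2 fold change was 0.06 ± 0.23 (SE; edgeR adjusted p = 0.939; exact permutation p = 0.556).

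Npas4 (ENSMUSG00000045903, chr19:4984355-4990316), a transcription factor gene that answers calcium entry in neurons with little response to growth factors, read 11.9 to 27.4 CPM in CTRL with a median of 18.9. The DPAn-6 mice read 16.1, 29.6, 16.8, 21.8 and 24.3 CPM. Its values were mixed between the groups. A log2 fold change of 0.15 ± 0.21 did not pass (SE; edgeR adjusted p = 0.813; exact permutation p = 0.442).

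Arc (ENSMUSG00000022602, chr15:74669083-74672570), whose mRNA travels to dendrites and whose protein takes AMPA receptors off the synapse, read 103 to 290.0 CPM in CTRL with a median of 197. The DPAn-6 mice read 184, 202.5, 225, 175 and 241 CPM. CTRL replicates 4 and 5 were above every DPAn-6 mouse and CTRL replicates 1, 3 and 7 below every one. For Arc the log2 fold change was 0.11 ± 0.23 (SE; edgeR adjusted p = 0.876; exact permutation p = 0.429).

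Ier2 (ENSMUSG00000053560, chr8:84661331-84662852), a single-exon gene for a nuclear protein induced by growth factors and activity, read 4.37 to 13.0 CPM in CTRL with a median of 9.33. The DPAn-6 mice read 7.72, 9.25, 8.70, 7.56 and 11.3 CPM. These values lay within the CTRL range. It was the 1 gene with an estimate below CTRL, at a log2 fold change of -0.05 ± 0.20 (SE; edgeR adjusted p = 0.943; exact permutation p = 0.943).

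CTRL replicate 3 stood apart from the other CTRL mice and decided how many of these genes passed. It was the lowest of all 12 mice for Fos, Junb, Egr4, Npas4, Arc and Ier2 and the highest CTRL mouse for Fosb, Egr1 and Egr2, so that 9 of the 10 genes had an extreme CTRL value in the same library. This library read GC-rich and short transcripts low. Over the tenth of genes tested with the highest GC content it lay 0.51 below the mean of the 12 libraries on the log2 scale, where the other 11 lay between -0.08 and 0.21, and over the tenth with the lowest GC content it lay 0.61 above, where the others lay between -0.21 and 0.19. A smooth trend on GC content and length took up 37.1% of the variance of its genes, against 0.539% to 15.0% in the other libraries. In GC content the 10 genes lay between the percentiles of 59.1 (Egr2) and 99.8 (Egr4) of the genes tested, and the trend alone put them -0.14 (Egr2) to -0.77 (Egr4) off in this library. Beyond that trend Egr1 remained 0.94 above its mean there, Egr2 0.59 and Fosb 0.58, while Fos remained -0.63, Junb -0.46 and Egr4 -0.46.

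Without CTRL replicate 3, 3 of the 10 genes passed an adjusted p below 0.05, all higher in DPAn-6, where 2.12% of all genes tested passed as higher and 6.1% in either direction. Fosb then had a log2 fold change of 0.53 ± 0.12 (SE; edgeR adjusted p = 0.0144), Egr1 of 0.56 ± 0.11 (adjusted p = 0.00614) and Egr4 of 0.39 ± 0.09 (adjusted p = 0.0182). For the same 3 genes all 5 DPAn-6 mice were above all 6 remaining CTRL mice (2.77% of all genes tested). Egr2 came next, at 0.51 ± 0.17 (adjusted p = 0.0765). Fos had 0.30 ± 0.18 (adjusted p = 0.339), and the estimates of Junb, Arc, Npas4 and Nr4a1 were between -0.01 and 0.07, with Ier2 at -0.16. With the GC and length trend taken out of each library and all 12 mice kept, Egr4 passed as higher (log2 fold change 0.505; adjusted p = 0.00792), as 1.56% of all genes tested did in that fit, and the other 9 genes did not, Fosb having an adjusted p of 0.171 and Egr1 of 0.412.

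**Figure D2:**
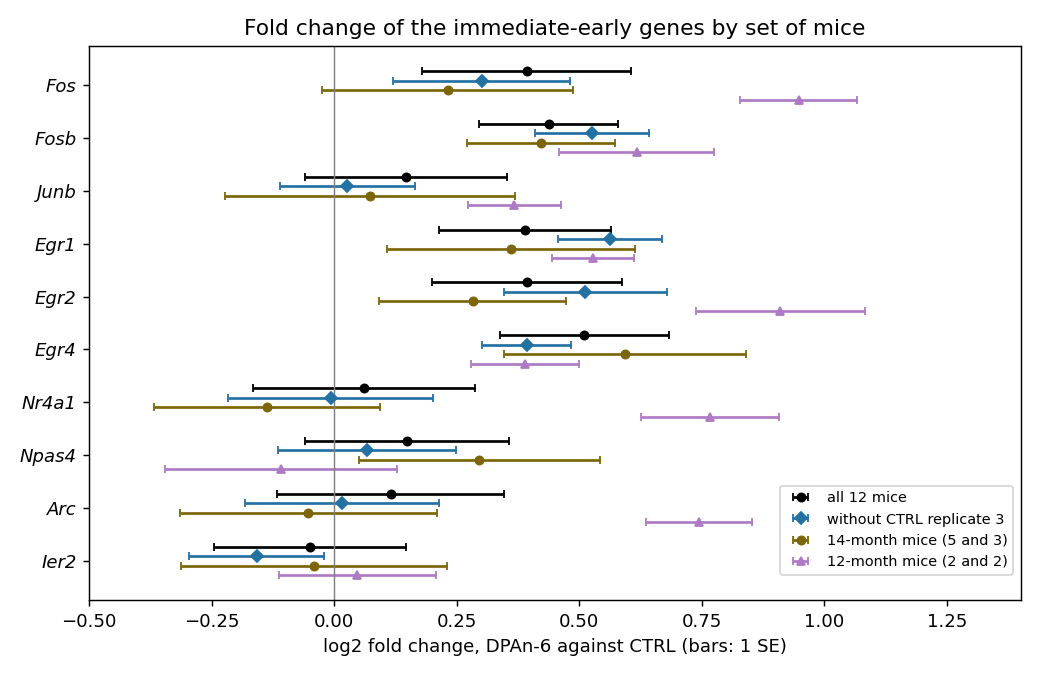
Log2 fold change of DPAn-6 against CTRL for each gene with 1 SE, from edgeR with all 12 mice (black), without CTRL replicate 3 (blue), and in the 14-month mice (brown) and the 12-month mice (purple) alone. Fos, Fosb, Junb, Egr1, Egr2 and Egr4 lie above 0 in all 4 sets, and Fos, Arc and Nr4a1 lie far higher in the 12-month mice than in the 14-month mice. In the 12-month set both CTRL mice had high and both DPAn-6 mice low Xist, so the 2 ages are not a contrast of age alone.

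Age and the level of Xist, the RNA made from the inactive X chromosome of females, were both unevenly spread over the groups. Xist read 566 to 1515 CPM in CTRL replicates 1, 2, 3 and 7 and DPAn-6 replicates 1, 2 and 5, and 1.35 to 4.17 CPM in the other 5 mice. Of the 12-month mice, both CTRL mice had high and both DPAn-6 mice low Xist, so treatment and sex cannot be told apart there. Of the 14-month mice, all 3 DPAn-6 mice had high Xist, against 2 of the 5 CTRL mice. A comparison between the ages therefore carries a difference in sex as well.

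In the 12-month mice alone, with 2 mice in each group, 7 of the 10 genes passed an adjusted p below 0.05 as higher, where 1.78% of all genes tested did. They were Fos at a log2 fold change of 0.95 ± 0.12 (SE), Egr2 at 0.91 ± 0.17, Nr4a1 at 0.77 ± 0.14, Arc at 0.74 ± 0.11, Fosb at 0.62 ± 0.16, Egr1 at 0.53 ± 0.08 and Junb at 0.37 ± 0.09. In the 14-month mice, with 5 and 3, 0 of the 10 passed (0.0188% of all genes tested as higher) and Fosb and Egr4 had an unadjusted p below 0.05 (3.6% of all genes tested as higher). Arc there had an estimate of -0.05 ± 0.26 and Nr4a1 of -0.14 ± 0.23. The treatment by age term of edgeR's quasi-likelihood test, fitted over all genes in the 12 mice, had an unadjusted p below 0.05 for Nr4a1 alone (adjusted p = 0.905), which 4.26% of all genes tested had, and 0 of the 10 passed after adjustment. Leaving out CTRL replicate 1 or 7, the 12-month CTRL mice, turned the estimate of Nr4a1 to -0.04 and -0.01. Leaving out CTRL replicate 3, of 14 months, turned it to -0.007. These CTRL mice all had high Xist, as did CTRL replicate 2, of 14 months, without which the estimate was 0.04.

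Among the CTRL mice, the values of Fos, Junb and Nr4a1 did not overlap between the levels of Xist, and those of the other genes of the list did. This split was chosen after the data were seen, and how many of all genes tested separate by it was not counted. Fos read 12.3 to 20.2 CPM in the 4 CTRL mice with high Xist and 25.1 to 36.7 in the 3 with low Xist, Junb 27.1 to 55.4 and 69.5 to 90.3, and Nr4a1 52.6 to 84.7 and 113 to 145. CTRL replicate 3 was among those with high Xist, and without it Fos there read 13.9 to 20.2 CPM. The 3 CTRL mice with low Xist were all of 14 months, and those with high Xist were of both ages. DPAn-6 mice showed no such gap, with Fos at 26.1 to 30.6 CPM in the 3 mice with high and 26.9 to 29.6 in the 2 with low Xist.

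Comparing the treatments within each level of Xist, a split chosen after the data were seen, gave estimates of different sign for some genes. In the mice with high Xist, 4 CTRL and 3 DPAn-6, the log2 fold change was 0.85 ± 0.17 (SE) for Fos, 0.57 ± 0.22 for Arc and 0.54 ± 0.18 for Nr4a1. In the mice with low Xist, 3 CTRL and 2 DPAn-6, it was -0.05 ± 0.14 for Fos, -0.35 ± 0.14 for Arc and -0.40 ± 0.14 for Nr4a1. In either set 0 of the 10 genes passed after adjustment with edgeR, where 0.00635% and 0.358% of all genes tested passed as higher. With high Xist 5 of the 10 had an unadjusted p below 0.05, all as higher. With low Xist 6 had it, Fosb, Egr1 and Egr4 as higher and Arc, Nr4a1 and Ier2 as lower. The share of all genes tested with an unadjusted p below 0.05 is not given for these 2 fits. The treatment by Xist level term had an unadjusted p below 0.05 for Fos, Nr4a1, Arc and Junb, as 1.24% of all genes tested had, and 0 of the 10 passed after adjustment (edgeR's quasi-likelihood test; adjusted p = 0.999 for all 4). Since DPAn-6 mice with high Xist were all of 14 months and those with low Xist all of 12 months, this term carries age as well. With Xist as covariate in the fit of all 12 mice, 0 of the 10 genes passed and 4 had an unadjusted p below 0.05. Fosb, Egr1, Egr2 and Egr4 had estimates above 0 at both levels of Xist and at both ages.

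**Figure D3:**
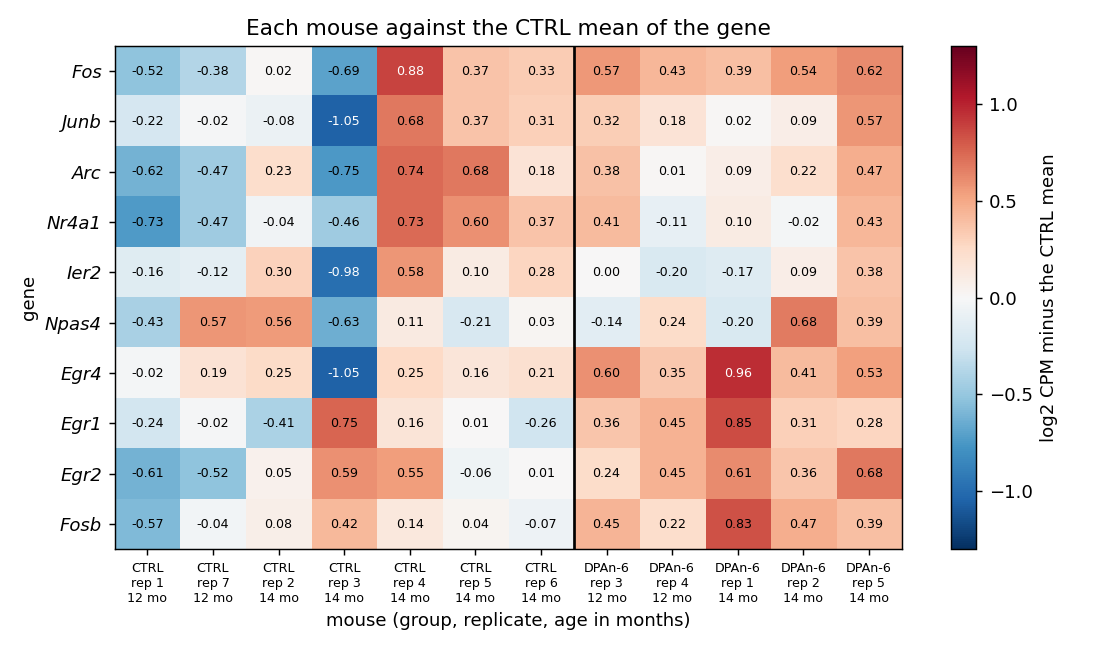
Log2 CPM of each gene in each mouse minus the CTRL mean of that gene, with mice ordered by group and age. CTRL replicates 1 and 7, with high Xist, are low for Fos, Arc, Nr4a1 and Egr2, CTRL replicates 4, 5 and 6, with low Xist, are high for Fos, Junb and Nr4a1, CTRL replicate 3 is low for 7 genes and high for Egr1, Egr2 and Fosb, and the DPAn-6 columns are mostly positive.

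The CTRL mice varied more than the DPAn-6 mice in all 10 genes. The median SD of log2 CPM was 0.488 in CTRL and 0.226 in DPAn-6, a ratio with a median of 2.26 over the genes. This has to be read against the whole table, in which 83.1% of genes tested had the larger SD in CTRL, with medians of 0.249 and 0.129 and a median ratio of 1.77. Without CTRL replicate 3 the CTRL SD was larger in 8 of the 10 genes, Egr1 and Egr4 being the exceptions, and in 65.3% of all genes tested. Fos was the extreme case, with an SD of 0.565 in CTRL and 0.0958 in DPAn-6, or a 2.98-fold range of CPM in CTRL against 1.17-fold in DPAn-6. Without CTRL replicate 3 its CTRL SD was 0.521. Counting error alone would give SDs of 0.017 (Egr1, 4168 to 11720 counts a mouse) to 0.113 (Egr2, 82 to 314 counts), below the SD within either group for all 10 genes. It came closest in Fos, where it was 0.068 beside the SD of 0.0958 in DPAn-6. The spread within groups placed the 10 genes between the percentiles of 64.0 (Fosb) and 91.3 (Arc) among all genes tested.

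Within groups, some of the genes moved together from mouse to mouse and others did not. Correlations are Pearson's r over the 12 mice after centring each gene on its group means. They describe these libraries, whose depth and composition all genes share, and the groupings were chosen after the values were seen. Fos, Junb, Arc, Nr4a1 and Ier2 had r between 0.68 and 0.95 in their 10 pairs, with a median of 0.86, and still 0.75 to 0.96 without CTRL replicate 3. Fos and Arc had an r of 0.95, and Arc and Nr4a1 of 0.94. These values carry the gap by Xist among the CTRL mice. Centred on group and Xist level together, the 10 pairs had r between 0.42 and 0.92 with a median of 0.73, and Fos and Arc had 0.86. Npas4, centred on group alone, had an r of 0.09 to 0.39 with Fos, Junb, Arc and Nr4a1 and of 0.57 with Ier2, which without CTRL replicate 3 came to -0.10 to 0.32.

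Egr1, Egr2 and Fosb had r of 0.57 to 0.72 among themselves and a median of -0.05 with the first 5 genes. For Egr2 and Fosb this separation rested on CTRL replicate 3. Without that mouse the median between the sets was 0.52, Egr2 and Fos had an r of 0.87 in place of 0.34, and Egr4 and Fosb had 0.84 in place of -0.19. Egr1 stayed apart without it, with an r of -0.17 (Ier2) to 0.25 (Fos) with the first 5 genes. Over all 45 pairs the median r was 0.34 with the 12 mice and 0.41 with the 11.

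**Figure D4:**
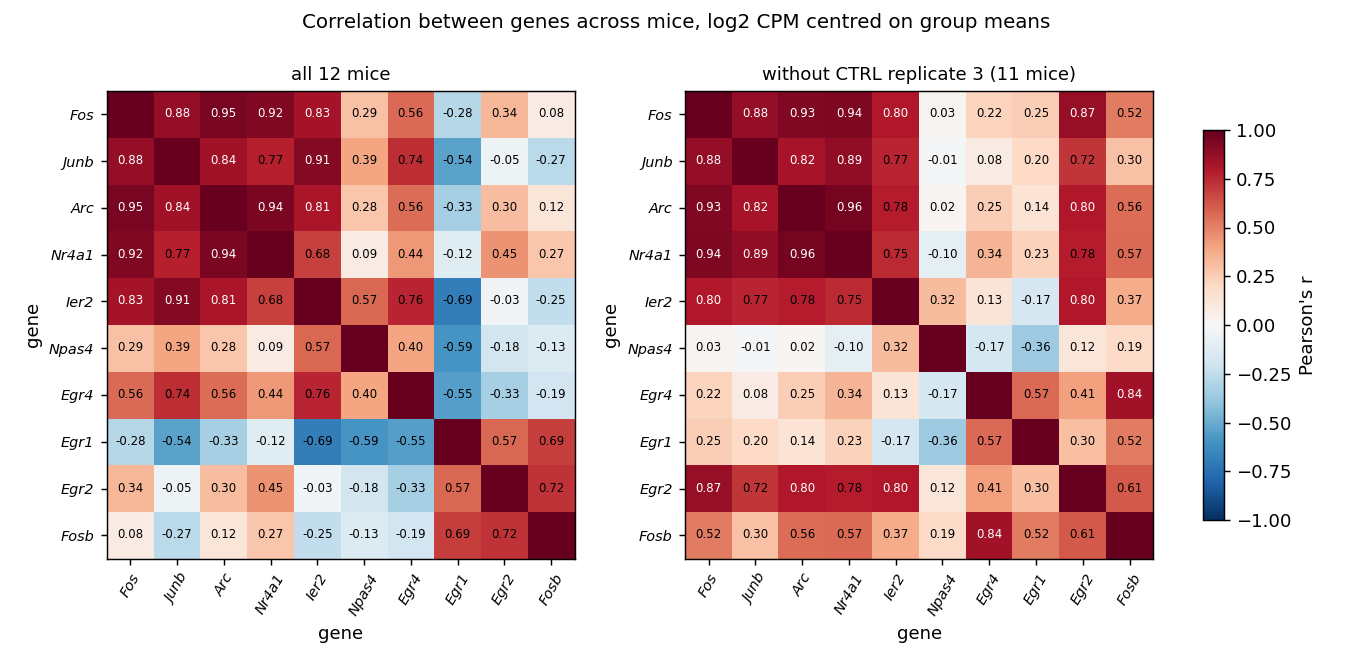
Pearson's r between the genes over mice after centring on group means, with all 12 mice (left) and without CTRL replicate 3 (right). The block of Fos, Junb, Arc, Nr4a1 and Ier2 is red in both panels, and Egr2 joins it only on the right.

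Divided by merged exon length, Egr1 was the most abundant at 93.0 CPM per kb on average, followed by Arc at 63.8, Nr4a1 at 27.3, Junb at 27.2, Egr4 at 18.9, Fos at 10.3, Ier2 at 5.92, Npas4 at 4.91, Fosb at 3.74 and Egr2 at 2.58. Egr1 stood above Arc in 9 of the 12 mice. Arc over Junb, Egr4 over Fos, Fos over Ier2 and Fosb over Egr2 held in all 12 mice. Junb and Nr4a1 could not be ordered, as Junb was the higher in 5 of 12 mice with a mean log2 difference of 0.002 ± 0.30 (SD), and Ier2 stood above Npas4 in 8 of 12.

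Among the genes outside the list whose levels followed the 10 genes most closely, by r over the 12 mice with the mean of their centred and scaled log2 CPM, were Dact1 (0.91), N4bp2l1 (0.88), Memo1 (0.86), Ica1 (0.86), Nfil3 (0.85), Gpsm2 (0.82) and Cln6 (0.82), out of 12055 genes that were abundant enough. At the other end were D7Ertd443e (-0.90), Pcdhb6 (-0.87), Clmp (-0.84) and Dach1 (-0.84). Nfil3, a leucine zipper repressor of the D-box, is itself rapidly induced by activity, and it had a log2 fold change of 0.48 ± 0.13 (SE; edgeR adjusted p = 0.0834) with all 5 DPAn-6 mice above every CTRL mouse.

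Another 37 rapidly induced genes, of which 36 could be tested (Fosl1, an AP-1 subunit, had 0 to 6 counts a mouse), gave 1 gene with an adjusted p below 0.05, as higher, where 0.408% of all genes tested passed as higher. It was Fosl2, also an AP-1 subunit, which read 37.1 to 52.6 CPM in CTRL with a median of 44.1 and 63.6, 66.1, 70.1, 49.4 and 57.6 CPM in DPAn-6. In Fosl2, 4 of the 5 DPAn-6 mice were above all CTRL mice. Its log2 fold change was 0.44 ± 0.10 (SE; edgeR adjusted p = 0.0464), and it passed in 13 of 28 other settings, with an adjusted p of 0.00485 to 0.533 over them. The call was lost when any 1 mouse other than CTRL replicates 3 and 5 and DPAn-6 replicate 4 was left out. The list had 8 genes with an unadjusted p below 0.05 as higher and 1 as lower, where 5.51% of all genes tested had it as higher and 14.5% in either direction. Its median log2 fold change was 0.11. The other members of the list with the smallest p were Nfil3, Egr3 (0.40 ± 0.11, adjusted p = 0.0954) and Plk3, a stress-responsive kinase gene (0.27 ± 0.08, adjusted p = 0.0982).

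The remaining paralogs of the 10 genes did not pass. Nr4a3 had a log2 fold change of 0.38 ± 0.17 (SE; edgeR adjusted p = 0.309), Jund of 0.21 ± 0.10 (adjusted p = 0.352), Nr4a2 of 0.02 ± 0.19 (adjusted p = 0.979) and Jun of -0.07 ± 0.08 (adjusted p = 0.763). Without CTRL replicate 3, Egr3 (adjusted p = 0.00335) and Nr4a3 (adjusted p = 0.00943) passed as well, among 8 genes of the list that did so as higher and Btg2, an antiproliferative gene, that did so as lower (adjusted p = 0.0418). In that fit 2.12% of all genes tested passed as higher and 6.1% in either direction.

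Upstream, 0 of 27 kinases and transcription factors of the pathway passed after adjustment with edgeR, DESeq2 or limma-voom, and 4 had an unadjusted p below 0.05 with each of these, as 14.5% of all genes tested did in either direction with edgeR. Crem, the CREB relative that includes an inducible repressor, was higher in estimate at 0.25 ± 0.09 (SE; adjusted p = 0.212), and the ERK1 gene Mapk3 at -0.21 ± 0.08 (adjusted p = 0.235), the SRF partner Mrtfb at -0.19 ± 0.08 (adjusted p = 0.247) and the coactivator gene Ep300 at -0.21 ± 0.09 (adjusted p = 0.278) were lower in estimate. The median of the list was -0.05. Among 11 feedback regulators, the dual-specificity phosphatase and Sprouty genes that damp ERK, 0 passed with edgeR, DESeq2 or limma-voom, and 3 had an unadjusted p below 0.05 with each. With edgeR these were Dusp4 (0.37 ± 0.15, SE), Spry2 (0.18 ± 0.08) and Dusp5 (0.43 ± 0.19), all as higher, which 5.51% of all genes tested had. The median of the feedback list was 0.09.

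The late-response genes gave a different count. These encode secreted and synaptic proteins made after the first wave, and 9 of 24 passed an adjusted p below 0.05, all as higher, against the 0.408% of all genes tested given above. They were Adcyap1, Nptx2, Scg2, Nrn1, Bdnf, Inhba, Crh, Rgs4 and Vgf, with log2 fold changes from 0.32 (Rgs4) to 0.77 (Adcyap1). The study had already reported Adcyap1, Vgf and Nptx2 as increased in these same libraries. Since the list was chosen with earlier results of these data known, its count is not that of a blindly drawn list. The median of the list was 0.27, like that of the 10 genes. The difference between the lists was not tested. Standard errors ran from 0.07 to 0.15 in these 9 genes and from 0.14 to 0.23 in the 10 immediate-early genes. The count of 9 came to 1 with Ttr as covariate or the replicate number as a block, to 0 in the 14-month mice and in the mice with high Xist, to 6 in those with low Xist, and to 2 to 5 when any 1 mouse other than CTRL replicates 3, 4 and 7 was left out.

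**Figure D5:**
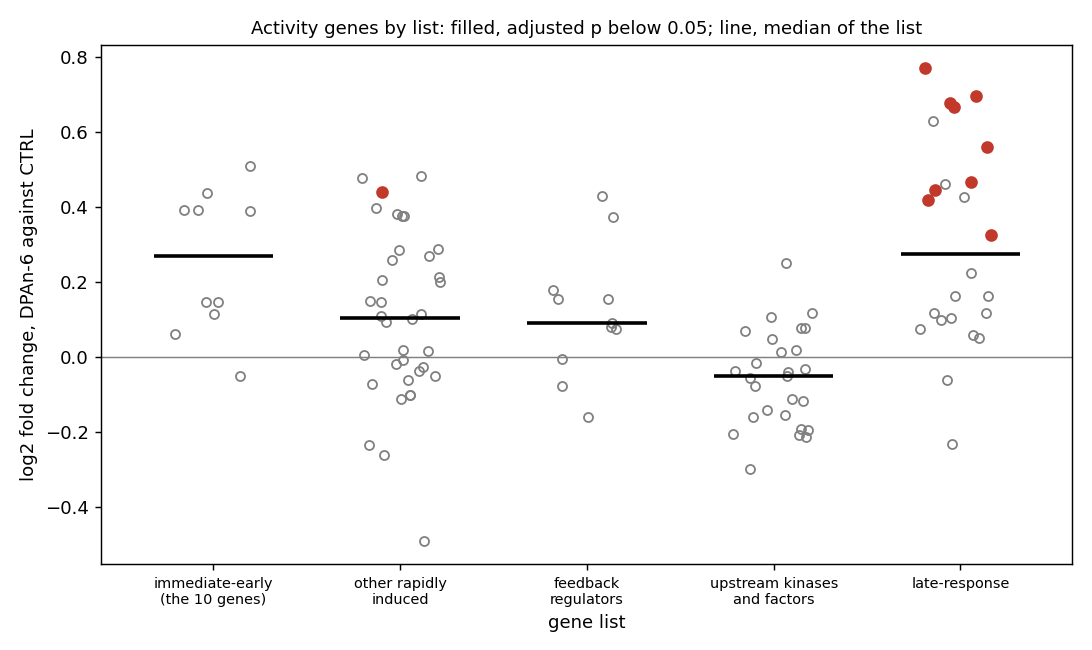
Log2 fold change of every gene tested in the 10 immediate-early genes and in 4 lists of the same pathway. Filled points passed an adjusted p below 0.05 and lines are medians, which run from -0.05 in the upstream list to 0.27 in the immediate-early and late-response lists.

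Other measures that moved between the groups are given here beside these results, and their part in them was not tested. Summed CPM of 9 inhibitory neuron markers was 771 to 943 in CTRL and 997 to 1166 in DPAn-6, of 7 microglial markers 797 to 1164 and 600.1 to 796, and of 12 circadian clock genes 1265 to 1432 and 1181 to 1224, so that none of these sums overlapped between the groups. The microglial sums all but met, at 797.3 in CTRL replicate 3 and 796.2 in DPAn-6 replicate 2. How often sums over other sets of genes fail to overlap was not tested. For the counts that follow, 0.408% of all genes tested passed with edgeR as higher and 1.14% as lower. An unadjusted p below 0.05 was found with edgeR in 14.5% in either direction. Of the inhibitory neuron markers 0 passed with edgeR and 3 had an unadjusted p below 0.05. Of the microglial markers Tmem119 and Csf1r passed as lower, and of the clock genes Per2, Per3 and Dbp as lower and Arntl as higher, while no source used here gives the hour of tissue collection. Of the 7 heat shock genes, Hsph1 passed as higher (sums of 742 to 905 in CTRL and 889 to 965 in DPAn-6). The 10 excitatory neuron markers summed to 8897 to 10943 CPM in CTRL and 9140 to 9651 in DPAn-6, with 0 passing, so the defining markers of cortical neurons were present in every mouse. Choroid plexus markers summed to 12.9 to 1673 CPM in CTRL and 7.96 to 23.6 in DPAn-6, with CTRL replicates 2, 3 and 5 the highest, and striatal markers to 181 to 529 and 192 to 405. Of the astrocyte, oligodendrocyte, endothelial, choroid plexus, striatal, red blood cell and glucocorticoid-responsive genes, 0 passed with edgeR. An unadjusted p below 0.05 was found as lower for 3 of 7 astrocyte, 1 of 6 endothelial and 5 of 5 tested choroid plexus genes. As higher it was found for 5 of 7 oligodendrocyte and 1 of 7 striatal genes. Of 7 glucocorticoid-responsive genes 1 had it as higher and 2 as lower, and of 5 red blood cell genes 0 had it. Astrocyte markers summed to 7094 to 11124 CPM in CTRL and 6356 to 7917 in DPAn-6, and oligodendrocyte markers to 5016 to 6625 and 5894 to 6725. No marker was at 0 counts in all mice. With Ttr, the leading choroid plexus gene, as covariate, 0 of the 10 immediate-early genes passed.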

How the data were processed

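Cortex RNA of 7 CTRL and 5 DPAn-6 mice was read as poly(A)-selected KAPA mRNA libraries. The authors aligned the reads with STAR (2.5.3a in the submitters' processing notes) to GRCm38. What they deposited is a single table of unnormalized gene counts. Whether counting used strand, and any batches, are not given in the sources used here. The p-values cover the spread between these mice. Identifiers were matched to GENCODE M21 (50339 of 50563). CPM was computed on library totals, and log2 CPM with a pseudocount of 0.5. The test was that of edgeR 4.0.16 under R 4.3.3 (TMM, filterByExpr by group, glmQLFit and glmQLFTest, Benjamini-Hochberg over all genes tested). The study's limma-voom (limma 3.58.1), DESeq2 1.42.0, other scalings and filters, age, Xist or Ttr as covariate, single ages, the replicate block and each mouse left out were alternatives. Taking out the trend of a library on GC content and length (known for 99.8% of genes tested) and fits within mice of high or low Xist (log2 CPM above 5 or not) were added after the data were seen. Fits were tested on simulated data.

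The genes, gene lists and markers were chosen with earlier results of these data known. Named were the 10 genes, their paralogs, in each other pathway list the genes with an adjusted p below 0.05 or otherwise the 4 with the smallest p, and the 8 genes most and 4 least correlated with the 10, of which 1 is not reported here. Btg2, the clock genes, Hsph1 and Dusp5 are named for their list or count. Correlations, permutation tests and figures used Python 3.11.15, numpy 2.4.6, scipy 1.17.1, pandas 2.3.3 and matplotlib 3.10.9.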

Additional observations from a re-analysis of the deposited data

Results flagged for a closer look

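Egr4 in CTRL replicate 3 stood far below the other CTRL mice, at 3.99 log2 CPM (15.9 CPM), where the other 6 lay between 32.5 and 39.3 CPM. Its gap to the nearest of them was 0.789 of the range of the group, above the critical value of 0.568 for 7 samples. The 10 genes in 2 groups gave 20 groups of values to test in this way, of which 1 was past the limit, and chance gives about 1 in 20. The same library was also the lowest of all 12 mice for Fos, Junb, Npas4, Arc and Ier2. On the log2 scale Egr4 lay -1.23 off its mean over the 12 mice there, where the GC and length trend of this library had a value of -0.77 for it, and the part of the trend in this was not tested.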

How the results depend on the processing

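The count of 0 genes with an adjusted p below 0.05 came to 7 in the 12-month mice, where CTRL and DPAn-6 mice also differed in Xist, to 1 with the GC and length trend removed, and to 0 to 3 when 1 mouse was left out, the 3 being reached without CTRL replicate 3. It was 0 in the other settings. The count of 3 genes with an unadjusted p below 0.05 came to 5 with limma-voom, with no filter on low counts and with age as covariate. It came to 5 in the mice with high Xist, to 6 in those with low Xist, where some were higher and some lower, and to 8 in the 12-month mice. The count of 1 gene with an estimate below CTRL came to 0 with limma-voom and with the replicate block, to 3 in the 14-month mice, to 0 in the mice with high and 5 in those with low Xist, and to 0 to 2 when 1 mouse was left out. The median log2 fold change of 0.27 came to 0.57 in the 12-month mice and 0.0075 in the mice with low Xist, and moved by less than the spread between mice in the other settings (0.18 to 0.53). Signs turned for Ier2, Nr4a1, Arc, Npas4, Fos and Junb. In the mice with low Xist, Fos came to -0.0505, Junb to -0.214, Arc to -0.353 and Nr4a1 to -0.401, and in those with high Xist Ier2 came to 0.251. Ier2 came to 0.0028 with limma-voom, 0.0112 with the replicate block, 0.0469 in the 12-month mice and -0.158 to 0.0545 with 1 mouse left out. Nr4a1 came to -0.137 and Arc to -0.0526 in the 14-month mice, Npas4 to -0.109 in the 12-month mice, and Nr4a1 to -0.0406 to 0.199 with 1 mouse left out, being below 0 without CTRL replicates 1, 3 or 7. In the permutation comparison of mean log2 CPM, Nr4a1 came to -0.0691 in the 14-month mice (exact permutation p = 0.857), Ier2 to -0.0032 with TMM-scaled totals (exact permutation p = 0.99), and Egr1 with TMM-scaled totals and Egr1 and Egr4 in the 14-month mice no longer passed. The cause of these changes was not tested.

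Replicate numbers 1 to 5 occur in both groups. Samples with the same number had correlations of 0.091, 0.016, -0.12, 0.22 and -0.07 between their deviations from the group means. Those with different numbers had -0.26 to 0.27. The numbers thus showed no pairing of the mice, though so few values cannot exclude one. With the replicate block 0 of the 10 genes passed, 4 had an unadjusted p below 0.05, and 79 genes of the table passed in place of 243. In 14-month and 12-month fits, arms of 2 or 3 mice limit the estimates, and all values rest on 1 library per mouse with no technical repeat.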
